A study of Homo sapiens with 18 samples.

Results

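NEAT1 and MALAT1 are neighbouring genes for nuclear long noncoding RNAs on chromosome 11. Their Pol II signal was read from every region of the deposited table in a fixed hg19 stretch that takes in both genes, which gave 7 of 12123 regions, the first starting at 65190112 and the last ending at 65275224. By position, 2 regions lay in the interval of NEAT1, 4 in that of MALAT1 and 1 between them. The regions were chosen by position, with earlier results of these data known. Levels, changes and calls against DMSO are therefore given as a description of these libraries. A call rests on an adjusted p-value, so calls against DMSO are not independent evidence. Those p-values are not printed for a region.

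The measurement was ChIP-seq of RNA polymerase II (Pol II) that carries phosphate on serine 5 of the repeats in its tail, here called Ser5 Pol II, a mark placed on the polymerase around initiation and usually densest near transcription starts. All groups were Rh30 cells, an established line of alveolar rhabdomyosarcoma, a tumour of cells related to skeletal muscle, in which the fusion transcription factor PAX3-FOXO1 carried an FKBP tag. The small molecule dTAG47 directs FKBP-tagged proteins to degradation. One group received 500 nM dTAG47 for 2 h, another 500 nM dTAG47 for 4 h, and the third received the solvent DMSO, whose duration the labels do not give. Each group had 2 libraries, called A and B in the table, and the labels say neither whether they came from separate cultures nor whether the tagged line was 1 clone. Other antibodies were used for 12 of the 18 samples of the series, which were not analysed here.

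NEAT1 RNA is the scaffold of paraspeckles, nuclear bodies that hold RNA-binding proteins such as NONO and SFPQ. It is made as a short form and as a long form that begin at the same promoter, and the long form is the one that paraspeckles need. MALAT1 RNA is among the most abundant nuclear RNAs of many cell types and collects in nuclear speckles, where splicing factors are stored. Its end is formed not by a poly(A) signal but by RNase P, which releases a small tRNA-like RNA called mascRNA. Both genes are read towards higher coordinates, so a region with a lower position lies nearer the beginning of its gene.

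The hg19 intervals tie regions to the genes. No gene models of hg19 were used here, so exon, promoter or gene end cannot be given for a region, and positions are printed as deposited, without knowing whether they count from 0 or 1. In RefSeq (GRCh38.p14), used for names and order alone, NEAT1 holds the microRNA gene MIR612, and MALAT1 overlaps the mascRNA gene and TALAM1, which is read from the opposite strand. RefSeq lists 3 genes between the pair: FAUP4, a transcribed pseudogene, and the long noncoding RNA genes ENEMAL and LINC02736. The regions carry no strand, so Pol II on MALAT1 and on TALAM1 cannot be told apart.

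RefSeq gives MALAT1 a pair of starts, 1307 bases apart in GRCh38.p14, and the bases around them are printed because the change of the Ser5 signal differed between close neighbours in the MALAT1 interval. Each window runs from 250 bases before a start to 50 bases after it, on the plus strand. NEAT1 had no matching window. The windows lie at chr11:65497488-65497787 and chr11:65498795-65499094 in GRCh38.p14, coordinates that cannot be set beside the hg19 positions of the regions. Capitals mark matches on either strand to 5 motifs. These are TATAAA, which defines the TATA box, the short motif GGGCGG, which defines the GC box, the CCAAT box, the letters GTAAACA, which forkhead factors such as FOXO1 bind, and GTCACG, which paired-domain factors such as PAX3 bind.
MALAT1 upstream start: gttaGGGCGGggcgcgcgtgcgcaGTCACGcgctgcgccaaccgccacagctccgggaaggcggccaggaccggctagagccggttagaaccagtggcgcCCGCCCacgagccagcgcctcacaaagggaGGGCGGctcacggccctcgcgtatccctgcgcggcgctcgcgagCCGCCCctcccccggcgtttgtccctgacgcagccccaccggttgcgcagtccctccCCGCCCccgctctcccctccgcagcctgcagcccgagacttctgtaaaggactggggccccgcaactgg
MALAT1 downstream start: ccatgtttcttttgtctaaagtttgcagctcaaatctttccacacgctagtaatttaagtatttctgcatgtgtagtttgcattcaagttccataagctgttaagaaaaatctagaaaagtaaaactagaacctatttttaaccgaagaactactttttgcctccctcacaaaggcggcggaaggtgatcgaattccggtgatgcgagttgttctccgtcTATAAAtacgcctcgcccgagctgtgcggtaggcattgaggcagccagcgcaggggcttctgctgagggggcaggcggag

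The upstream window was 73.7% G or C and held 5 GC boxes and 1 paired-domain core, this core beginning at position -226 from the start. The downstream window was 46.0% G or C and held a TATA box beginning at position -30 from the start. Neither window held a CCAAT box or a forkhead core, and no matches to different motifs overlapped. Among 35116 RefSeq windows of the same length, 11.5% held the TATA box, 45.0% the GC box, 34.6% the CCAAT box, 3.42% the forkhead core and 9.02% the paired-domain core. These are matches of letters, and binding of any factor there was not measured.

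The 6 libraries held between 962251 (4 h library B) and 1792013 (DMSO library A) counts over the table. Levels are in CPM, counts relative to library size, with TMM factors that also correct for composition. Where values are given in pairs, library A comes before library B. Every region spans 400 bases, so levels can be compared between regions. The 3 regions of the table with the highest level took 2.61% (A) and 3.21% (B) of counts at 2 h, 2.61% (A) and 4.17% (B) at 4 h, and 1.77% (A) and 2.61% (B) in DMSO. That share was higher on average after dTAG47, so with 6 libraries it cannot be fully told apart from the treatment. A fit with that share as a covariate, called the share covariate, may therefore take up part of a treatment difference. Its values are given where it changed a call or a sign, and beside some other results. A region is said to be called where edgeR's quasi-likelihood test, fitted over all regions and libraries, gave a Benjamini-Hochberg adjusted p under 0.05.

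After dTAG47, Ser5 Pol II was higher than in DMSO at both NEAT1 regions, by 1.28 to 1.48 times, and at the second and the fourth of the MALAT1 regions. Treated and DMSO libraries overlapped at the first and the third MALAT1 regions and between the genes. Calls against DMSO were made at 3 of the 7 regions at 2 h and at 2 of the 7 at 4 h, all for a higher signal, beside 2.22% and 1.52% of all regions called higher at 2 h and at 4 h. None was called lower, beside 0.396% of all regions at 2 h and 0.487% at 4 h. The treated libraries stood above both DMSO libraries at 4 of the 7 regions at each time, against 21.9% of all regions at 2 h and 20.2% at 4 h. The median log2 fold change over the 7 regions was 0.45 at 2 h and 0.36 at 4 h, and over all regions it was -0.01 at each time. Both times are set against the same DMSO libraries, so they are not separate observations.

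**Figure D1:**
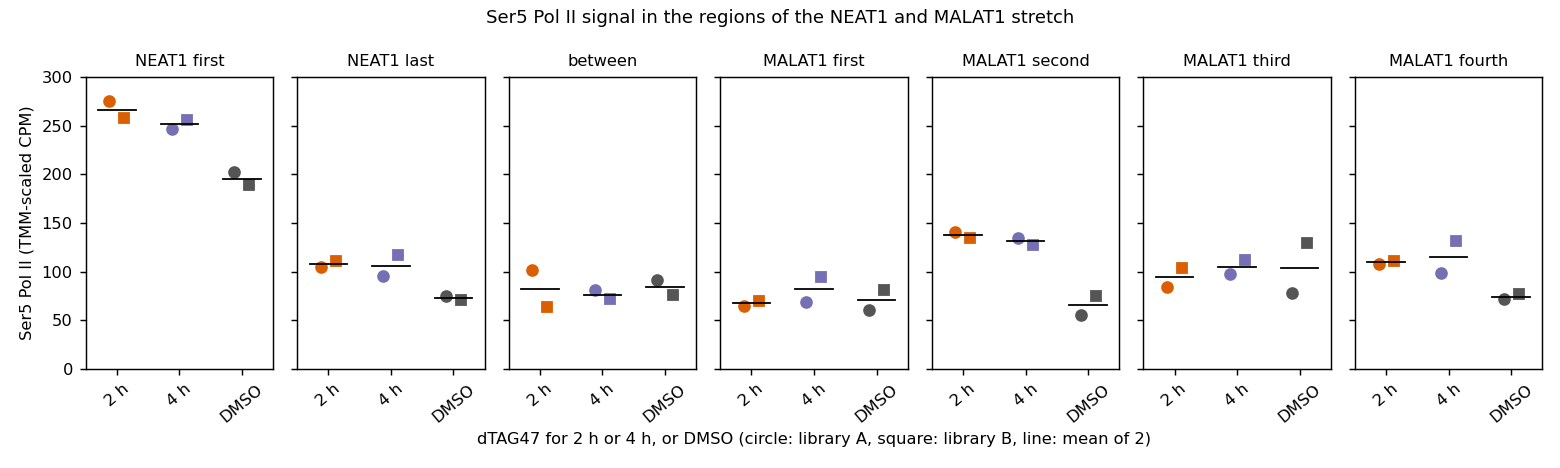
Ser5 Pol II signal (vertical axis, TMM-scaled CPM) in each library for the 7 regions in order of position, with 2 h and 4 h of dTAG47 left of DMSO; circles are library A, squares library B and lines the mean of both. The first NEAT1 region is the highest, and the second MALAT1 region is the one where treated libraries, at 127 to 141 CPM, stand farthest above DMSO, at 55.6 and 74.6 CPM.

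The first NEAT1 region, chr11:65190112-65190512, carried the most Ser5 Pol II of the stretch. It had 275 and 258 CPM at 2 h (A and B), 247 and 256 CPM at 4 h (A and B), and 202 and 189 CPM in DMSO (A and B). All 4 treated libraries were above both DMSO libraries, and the 2 h and 4 h libraries lay close together. Its mean over the 6 libraries, 238 CPM, ranked 302 of 12123, so that 2.49% of regions were at or above it. The mean was 267 ± 11.8 CPM at 2 h, 251 ± 6.14 CPM at 4 h and 196 ± 9.62 CPM in DMSO (SD, n = 2 each). The log2 fold change was 0.45 (SE 0.14) at 2 h and 0.36 (SE 0.15) at 4 h, and the region was called at neither time in this fit. With the share covariate it was 0.46 at 2 h, and called. A log2 fold change at least as high was found at 5.36% of all regions at 2 h and at 8.22% at 4 h. Highly occupied regions tended to be higher after dTAG47 in general: among the 1212 regions with the highest level the median change was 0.11 at 2 h and 0.07 at 4 h on the log2 scale. With cyclic loess scaling, which removes such a trend with level, the fold change of the first NEAT1 region was 0.30 at 2 h and 0.26 at 4 h.

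The last NEAT1 region, chr11:65212950-65213350, lies 22438 bases beyond the end of the first. It had 105 and 111 CPM at 2 h (A and B), 95.1 and 117 CPM at 4 h (A and B), and 75.1 and 71.2 CPM in DMSO (A and B). The treated libraries did not overlap with DMSO at either time. The log2 fold change was 0.56 (SE 0.15) at 2 h, where it was called, and 0.51 (SE 0.15) at 4 h, where it was not. The 2 h call was lost with DESeq2, with total count scaling, with cyclic loess and limma-trend, with the share covariate, and in each fit that left out a DMSO or a 2 h library. The fold change then lay between 0.46 and 0.60. At 4 h the log2 fold change was 0.36 with the share covariate.

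The balance between both NEAT1 regions was similar in the 6 libraries. The first region had 2.61 and 2.33 times the counts of the last at 2 h (A and B), 2.60 and 2.18 times at 4 h (A and B), and 2.70 and 2.65 times in DMSO (A and B). A ratio within a library does not depend on how libraries are scaled. The treated ratios were all below the DMSO ones, but their counting intervals overlap with those of DMSO. The first region took 70.0% of the counts of both in 2 h library B (95% Clopper-Pearson interval 65.7% to 74.0%), 68.6% in 4 h library B (63.4% to 73.4%) and 72.6% in DMSO library B (67.9% to 77.1%). Such intervals cover counting error alone. The summed NEAT1 signal was 375 ± 7.86 CPM at 2 h, 358 ± 21.7 CPM at 4 h and 269 ± 12.4 CPM in DMSO (SD, n = 2 each), which is 1.40 times DMSO at 2 h and 1.33 times at 4 h.

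The region between the genes, chr11:65244609-65245009, had 102 and 63.1 CPM at 2 h (A and B), 81.3 and 71.4 CPM at 4 h (A and B), and 91.3 and 76.0 CPM in DMSO (A and B). The groups overlapped, and the libraries of 1 treatment differed from each other by more than the treatments did. Its log2 fold change was -0.02 (SE 0.17) at 2 h and -0.12 (SE 0.17) at 4 h, and 0.20 and 0.18 with the share covariate.

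The second MALAT1 region, chr11:65266337-65266737, had the largest change of the stretch. It had 141 and 135 CPM at 2 h (A and B), 135 and 127 CPM at 4 h (A and B), and 55.6 and 74.6 CPM in DMSO (A and B). The groups were far apart, and the lowest treated library was well above the highest DMSO library. The mean was 138 ± 4.60 CPM at 2 h, 131 ± 6.15 CPM at 4 h and 65.1 ± 13.4 CPM in DMSO (SD, n = 2 each). Ser5 Pol II rose 2.14-fold at 2 h (log2 fold change 1.10, SE 0.15) and 2.04-fold at 4 h (1.03, SE 0.16). A log2 fold change as high was found at 0.247% of all regions at 2 h and at 0.272% at 4 h. The region was called at both times in every alternative fit that was run, with log2 fold changes of 0.89 to 1.32 at 2 h and 0.82 to 1.26 at 4 h when 1 library was left out, and 1.09 and 1.02 with the share covariate.

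The first MALAT1 region, chr11:65265653-65266053, ends 284 bases before the second begins and did not share its change. It had 64.9 and 69.9 CPM at 2 h (A and B), 68.7 and 94.8 CPM at 4 h (A and B), and 60.5 and 80.7 CPM in DMSO (A and B). The 2 h values lay between the DMSO ones, and the 4 h values overlapped with them. The log2 fold change was -0.05 (SE 0.17) at 2 h and 0.18 (SE 0.17) at 4 h. With the share covariate it was -0.29 at 2 h and turned to -0.19 at 4 h.

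The third MALAT1 region, chr11:65267840-65268240, begins 1103 bases after the end of the second. It had 84.5 and 104 CPM at 2 h (A and B), 97.7 and 112 CPM at 4 h (A and B), and 77.8 and 129 CPM in DMSO (A and B). All 4 treated values lay between the DMSO libraries, which differed from each other more than at any other region of the stretch. The log2 fold change was -0.12 (SE 0.17) at 2 h and 0.02 (SE 0.17) at 4 h. With the share covariate it was -0.35 at 2 h and turned to -0.34 at 4 h. With total count scaling it turned to -0.03 at 4 h.

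The fourth MALAT1 region, chr11:65274824-65275224, is the last in the MALAT1 interval. Without gene models of hg19 it is not known whether it lies within the gene, and it is counted in the MALAT1 sum. It had 108 and 111 CPM at 2 h (A and B), 98.9 and 131 CPM at 4 h (A and B), and 71.3 and 76.6 CPM in DMSO (A and B). The treated libraries did not overlap with DMSO, as at the last NEAT1 region. It rose by 0.57 (SE 0.15) on the log2 scale at 2 h and by 0.61 (SE 0.16) at 4 h, called at both times. These calls were lost with DESeq2 (0.56 at 2 h and 0.63 at 4 h), with total count scaling (0.50 and 0.55) and with the share covariate (0.41 and 0.36). They were also lost without DMSO library A (0.51 at 2 h and 0.55 at 4 h), at 2 h with cyclic loess or without either 2 h library (0.59 without A and 0.55 without B), and at 4 h without 4 h library B (0.43).

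**Figure D2:**
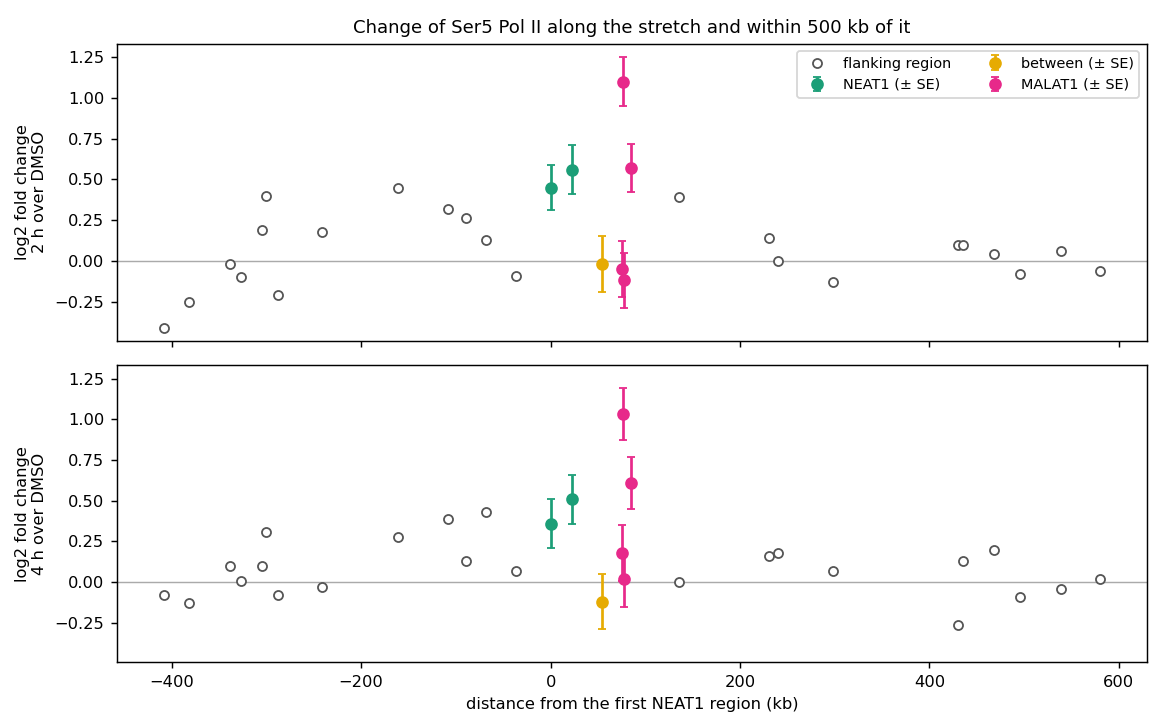
Log2 fold change of Ser5 Pol II over DMSO at 2 h (upper panel) and 4 h (lower panel) against the distance from the first NEAT1 region in kb; filled points with SE bars are the 7 regions and open points are the 23 flanking regions within 500 kb. The second MALAT1 region, at 1.10 and 1.03, stands above its immediate neighbours at -0.05 and -0.12 (2 h) and 0.18 and 0.02 (4 h), and the flanking regions stay between -0.41 and 0.45.

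The distribution of Ser5 Pol II within the MALAT1 interval differed between treated and DMSO libraries. The second region had 2.17 and 1.92 times the counts of the first at 2 h (A and B), 1.97 and 1.34 times at 4 h (A and B), and 0.920 and 0.924 times in DMSO (A and B). Against the third region the ratio was 1.67 and 1.29 at 2 h (A and B), 1.39 and 1.13 at 4 h (A and B), and 0.715 and 0.577 in DMSO (A and B). In each ratio all treated libraries were above 1 and both DMSO libraries below it, and 4 h library B, the shallowest library, was the lowest of the treated ones.

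As a share of the counts over the 4 MALAT1 regions, the second region took 35.4% in 2 h library A (95% Clopper-Pearson interval 31.5% to 39.5%) and 32.1% in 2 h library B (28.2% to 36.1%). It took 33.8% in 4 h library A (30.1% to 37.6%) and 27.3% in 4 h library B (23.2% to 31.7%). In DMSO it took 21.0% in library A (17.5% to 24.9%) and 20.6% in library B (17.3% to 24.4%). The intervals of both 2 h libraries and of 4 h library A lie above both DMSO intervals, and that of 4 h library B overlaps with them. They cover counting error alone, while libraries of a group differed by more than that, so they are no test between groups. The third region had a lower share after dTAG47, with 21.2% and 24.8% at 2 h (A and B), 24.4% and 24.1% at 4 h (A and B), and 29.3% and 35.8% in DMSO (A and B). Shares of the 4 regions add up to the whole, so a higher share of the second lowers the others, and the treated levels of the third lay inside the DMSO range.

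How far neighbouring regions differ elsewhere in the table was looked at after these values had been seen. There were 341 pairs of adjacent regions with starts no more than 2 kb apart, and their log2 fold changes differed by a median of 0.22 at 2 h and 0.20 at 4 h. At 2 h the second MALAT1 region exceeded the first by 1.15, a difference reached by 2 of the 341 pairs (0.587%), itself included. The third minus the second was -1.21, a size that no other pair reached. At 4 h the differences were 0.85 and -1.01. The first size was reached by 7 pairs (2.05%), both MALAT1 pairs included. The other was reached by 2 pairs (0.587%), itself included. Both MALAT1 pairs share the second region and so are 1 observation rather than separate ones.

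**Figure D3:**
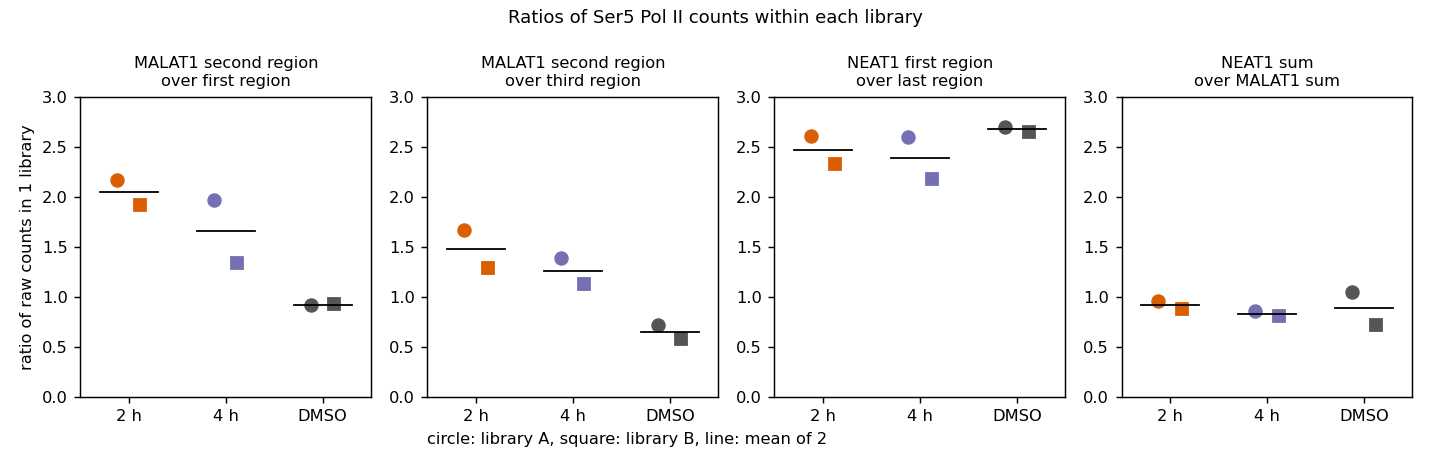
Ratios of raw Ser5 Pol II counts within each library (vertical axis, no unit), with 2 h and 4 h of dTAG47 left of DMSO; circles are library A, squares library B and lines the mean of both. The ratios of the second MALAT1 region to its neighbours are above 1 in the treated libraries and below 1 in DMSO, while the NEAT1 to MALAT1 ratio overlaps between groups.

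Summed over its 4 regions, MALAT1 had 398 and 420 CPM at 2 h (A and B), 401 and 465 CPM at 4 h (A and B), and 265 and 361 CPM in DMSO (A and B). That is 1.31 times DMSO at 2 h and 1.38 times at 4 h. The treated sums are all above the DMSO sums, but DMSO libraries A and B differ widely. Without DMSO library B the log2 ratio of the sums was 0.62 at 2 h and 0.71 at 4 h, against 0.38 and 0.47 with it, and without DMSO library A it was 0.18 and 0.26. Without the second region the log2 ratio was 0.13 at 2 h and 0.28 at 4 h.

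The genes were about equal in summed signal, although NEAT1 has 2 regions and MALAT1 has 4. The NEAT1 sum was 0.956 and 0.880 times the MALAT1 sum at 2 h (A and B), 0.854 and 0.803 times at 4 h (A and B), and 1.05 and 0.720 times in DMSO (A and B). The treated ratios all fall between those of the DMSO libraries, so no shift of one gene against the other was seen beyond the spread between DMSO libraries. In order of mean level, the first NEAT1 region (238 CPM) was followed by the second MALAT1 region (111 CPM), the third (101 CPM) and the fourth (99.4 CPM), the last NEAT1 region (95.8 CPM), the region between (80.8 CPM) and the first MALAT1 region (73.3 CPM). The 4 regions from 95.8 to 111 CPM overlap with each other over the 6 libraries, as do the last 2 in this order. The first NEAT1 region was above all others in each of the 6 libraries. In DMSO alone the second MALAT1 region, at 65.1 ± 13.4 CPM, had the lowest mean of the 7 and overlapped with the first and the fourth MALAT1 regions and the last NEAT1 region, at 70.6 ± 14.3, 74.0 ± 3.80 and 73.1 ± 2.75 CPM.

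The 4 h and 2 h libraries were compared directly with the same edgeR fit. None of the 7 regions was called, each with an adjusted p of 0.998, and 0 of the 12123 regions (0.0%) were. Over all regions 396 had an unadjusted p under 0.05 in edgeR, 33 in DESeq2 and 385 in limma-voom. Each of these counts is below a share of 0.05 of all regions, the share expected if no region differed. In edgeR the count was above that share with a block by column letter (734) and with the share covariate (671). Such counts depend on the fit and do not settle whether the times differ. DESeq2 and limma-voom also called 0. The log2 fold change of 4 h over 2 h ran from -0.10 (SE 0.18) at the region between the genes to 0.24 (SE 0.18) at the first MALAT1 region. At the second MALAT1 region it was -0.07 (SE 0.15), and a missed threshold does not make both times equal. At the first NEAT1 region both 4 h libraries, at 247 and 256 CPM, were below both 2 h libraries, at 275 and 258 CPM. This arrangement occurred at 16.4% of all regions.

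The surroundings of the stretch were looked at in the same fit. Within 500 kb on either side there were 23 regions, 13 at lower and 10 at higher positions, with mean levels from 38.5 to 138 CPM and a median of 68.9 CPM, against 64.2 CPM over the table. None was called at 2 h or at 4 h. Over all regions 2.22% were called higher at 2 h and 1.52% at 4 h, and 0.396% and 0.487% were called lower. A count of none among 23 is near those shares. The median log2 fold change of the 23 regions was 0.06 at 2 h, with a range of -0.41 to 0.45. At 4 h it was 0.07, with a range of -0.26 to 0.43. The first NEAT1 region, at 0.45 and 0.36, was close to the highest of these flanking values, while the last NEAT1 region and the second and the fourth MALAT1 regions were above all of them at both times.

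**Figure D4:**
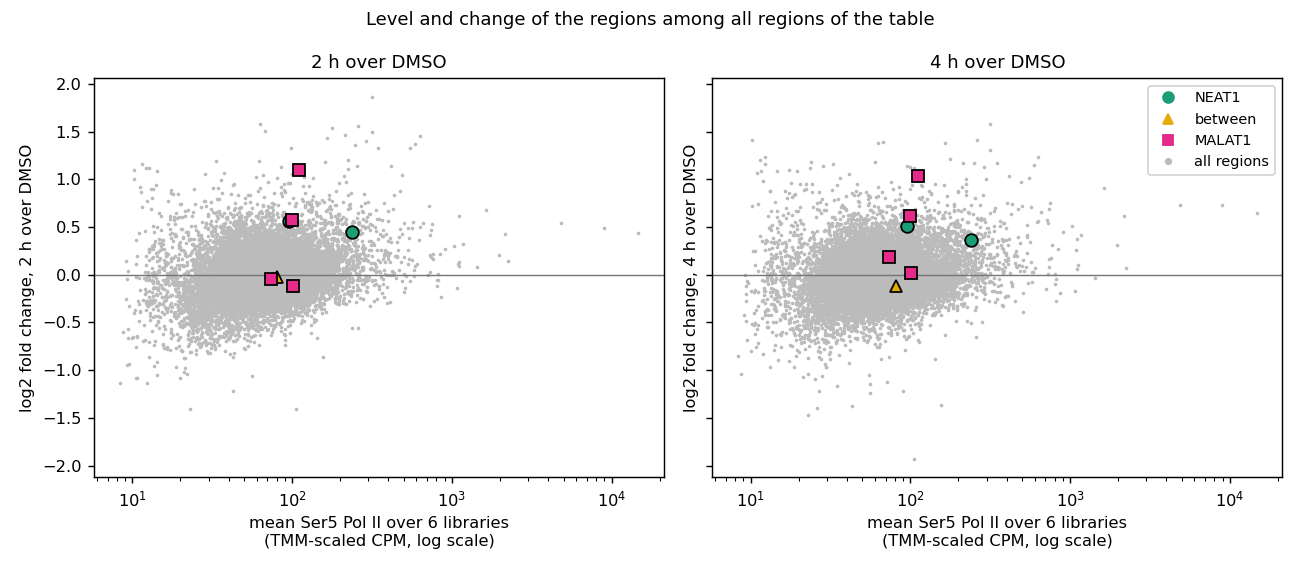
Mean Ser5 Pol II level over the 6 libraries (horizontal axis, TMM-scaled CPM, log scale) against log2 fold change over DMSO at 2 h (left) and 4 h (right); grey points are all 12123 regions and coloured points the 7 regions. The second MALAT1 region, at 111 CPM, sits at 1.10 and 1.03 above the bulk of regions, the first NEAT1 region is the most occupied of the 7, and the 3 regions whose groups overlap lie between -0.12 and 0.18.

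Regions elsewhere with the most similar course over the 6 libraries were ranked by Pearson's r of log2 CPM with each gene's sum, among 11990 regions outside the stretch with a mean of at least 20 counts. The nearest to NEAT1 were chr15:45490779-45491179 (r = 0.996), chr17:62502155-62502555 (0.995), chr10:14227616-14228016 (0.993), chr19:58361313-58361713 (0.992) and chr20:3910033-3910433 (0.991). Their log2 fold changes were between 0.43 and 1.03 at 2 h and between 0.35 and 0.93 at 4 h. The nearest to MALAT1 were chr2:207024528-207024928 (r = 0.998), chr14:104164443-104164843 (0.995), chr6:27805547-27805947 (0.995), chr5:102455456-102455856 (0.990) and chr6:41977163-41977563 (0.987), with log2 fold changes between 0.25 and 0.76 at 2 h and between 0.28 and 0.79 at 4 h. With 6 points and so many regions high values are common: r was over 0.95 at 128 regions for NEAT1 and at 103 for MALAT1. Both sums were higher after dTAG47, so positive fold changes at the regions ranked nearest follow from the ranking itself. The points share the libraries and their scaling, and the values describe these libraries only.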

How the data were processed

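Ser5 Pol II ChIP-seq was analysed in 6 libraries, 2 per group. The authors deposited raw read counts for 12123 regions of 400 bases. Per the submitters' processing notes, the builds hg19 and dm3 (fly) and the tools DiffBind, DESeq2, MACS2, Bowtie2 and Trimmomatic 0.32 were used. Their roles and the way regions were called and counted were not stated there. The table has no fly reads, so a change of all regions by 1 factor would not be seen. Column letters were tied to groups and not to replicate numbers. The libraries of a group differed by more than sampling noise (chi-square per degree of freedom 2.33 for DMSO, 1.50 for 2 h, 2.26 for 4 h). P-values reflect only how far these libraries differ, and that may be technical.

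Counts were fitted with edgeR 4.0.16 in R 4.3.3 (TMM, filterByExpr, which removed 0 regions, quasi-likelihood test, all 6 libraries in 1 fit), with Benjamini-Hochberg adjustment over all regions. The method was tested on simulated data. Standard errors are the size of the log2 fold change over the square root of F. Each region of the stretch is named, and like regions are the 5 with the highest r for each gene. The regions, lists and tests were chosen with earlier results of these data known. Lists of paraspeckle, speckle and RNA-processing genes and of cell markers, planned, were not used, since they need an annotation of hg19. Alternatives were other scalings, DESeq2 1.42.0, limma-voom (limma 3.58.1), other filters, a fit of 2 groups, a block by letter, a covariate and leaving out each library. Intervals and motifs were computed in Python 3.11.15 with scipy 1.17.1.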

Additional observations from a re-analysis of the deposited data

How the results depend on the processing

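The second MALAT1 region, starting at 65266337, stayed called at 2 h and 4 h in every alternative. The first NEAT1 region (65190112) became called with the replicate block by column letter (log2 fold change 0.45 at 2 h, 0.35 at 4 h) and, at 2 h, with the share of the 3 highest regions as a covariate (0.46). At 2 h the last NEAT1 region (65212950) lost its call with total count scaling (0.50), DESeq2 (0.56), cyclic loess with limma-trend, added after the data had been seen (0.54), and the covariate (0.46). With 1 library left out its fold change was 0.53 to 0.60 at 2 h, and at 4 h 0.38 to 0.68, called without 4 h library A. It also became called at 4 h with the block (0.51). The fourth MALAT1 region (65274824) lost its call with total count scaling (0.50 at 2 h, 0.55 at 4 h), DESeq2 (0.56 and 0.63), the covariate (0.41 and 0.36) and, at 2 h, cyclic loess (0.54). Leaving out 1 library gave 0.51 to 0.62 at 2 h and 0.43 to 0.83 at 4 h. The cause was not tested.

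Signs turned at regions that were not called. With the covariate these were the region between the genes (0.20 at 2 h, 0.18 at 4 h), the first MALAT1 region at 4 h (-0.19), the third at 4 h (-0.34) and the fourth for 4 h against 2 h (-0.05), and with total count scaling the third at 4 h (-0.03). Leaving out 1 library gave the region between -0.41 to 0.28 at 2 h, -0.24 to 0.03 at 4 h and -0.40 to 0.29 for 4 h against 2 h. It gave the first MALAT1 region -0.26 to 0.16 and -0.03 to 0.44 at 2 h and 4 h, and the third -0.46 to 0.28 and -0.32 to 0.42. For 4 h against 2 h it gave -0.01 to 0.30 at the third, -0.14 to 0.26 at the fourth and -0.18 to 0.12 at the last NEAT1 region.

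The log2 ratio of the NEAT1 sum was 0.48 at 2 h and 0.41 at 4 h. It was 0.42 at 2 h with total count scaling, and 0.57 and 0.54 without the first region. For MALAT1 it was 0.13 at 2 h without the second region, and 0.18 to 0.62 with 1 library left out. The mean NEAT1 to MALAT1 ratio was 0.918 at 2 h, 0.828 at 4 h and 0.883 in DMSO. In the same order it became 0.265, 0.245 and 0.240 without the first NEAT1 region, which held 68.6% to 73.0% of the NEAT1 counts. Without the second MALAT1 region it became 1.39, 1.20 and 1.12. That region held 27.3% to 35.4% of the MALAT1 counts after dTAG47, and 21.0% (A) and 20.6% (B) in DMSO.

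Over the table, 317 regions were called at 2 h and 243 at 4 h. DESeq2 called 99 and 58, with no adjusted p for 7756 and 6346 regions, the block 859 and 743, the covariate 499 at 2 h, and cyclic loess 156 at 2 h. Leaving out 1 library gave 147 to 445 at 2 h, 120 to 369 at 4 h and 0 to 1 for 4 h against 2 h. The column letters are not tied to replicate numbers. Differences between libraries A and B correlated across regions between groups (r = 0.218 for 2 h with DMSO, 0.278 for 4 h with DMSO and 0.158 for 4 h with 2 h), with 2 letters only, so the block is given here as an alternative. Counts of 67 to 394 per region and library limit what could be seen at the regions that were not called.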
